A study of Sus scrofa with 4 samples.

Results

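The plasminogen activator genes of porcine granulosa cells were read in 4 RNA sequencing libraries, as the rows of the count table for 6 gene symbols. These are PLAU and PLAT, the urokinase-type and tissue-type plasminogen activators, PLAUR, the urokinase receptor, ANXA2 and S100A10, the subunits of the annexin A2 complex, and the inhibitor SERPINE2. They are 6 of 29884 rows, all 6 had counts in every library, and all 6 passed the filter on low counts that left 14352 genes to test. Granulosa cells surround the oocyte and line the wall of the follicle, and these came from antral follicles of pigs whose breed and age the labels do not give. The libraries fall into 2 from cells with a high share in G0/G1, the part of the cell cycle before DNA synthesis, and 2 from cells with a low share, as grouped after flow cytometry of part of each follicle's cells. No treatment or genotype separates the groups. Whether the 2 libraries of a group stem from different animals is not in the labels, and p-values therefore reflect only how far these samples spread, which may be technical.

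Plasminogen activators cut plasminogen, a blood protein made by the liver, into plasmin, a broad protease that breaks down fibrin and matrix and activates other proteases. The urokinase receptor holds urokinase at the cell surface, the annexin A2 complex offers plasminogen and tissue-type activator a docking site there, and serpins such as SERPINE2 trap the activators and plasmin in inactive complexes. In the ovary the system is known for the gonadotropin-driven loosening of the follicle wall before ovulation, with the tissue-type activator leading in rats and urokinase in mice.

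Total counts ran from 28701688 to 30399863 in high and from 27442850 to 32674921 in low libraries. Granulosa markers summed to 11618 to 19699 CPM (read counts normalised to the scaled size of each library) in high and 14451 to 16606 CPM in low libraries, and 11 of 12 had at least 10 counts in each library. Markers of S phase and mitosis summed to 1238 and 396 CPM in high against 3260 and 2936 CPM in low libraries. Theca and stroma markers summed to 133 and 178 CPM in high replicates 1 and 2, against 130 and 1898 CPM in low replicates 1 and 2, so that low replicate 2 stood apart. Endothelial markers summed to 63.4 and 69.2 CPM in high and 70.8 and 97.8 CPM in low. These sums joined genes with unlike patterns. TIE1 had 38.7 and 12.1 CPM in high and 56.5 and 22.3 CPM in low replicates 1 and 2. KDR had 1.98 and 29.5 CPM in high and 2.92 and 10.5 CPM in low, and VWF 6.64 and 4.32 CPM in high and 1.16 and 22.0 CPM in low. Leukocyte markers summed to 8.89 and 18.1 CPM in high and 4.80 and 20.1 CPM in low. The leukocyte gene PTPRC stayed between 0.0351 and 0.624 CPM in all 4 libraries. Of 6 listed erythrocyte and platelet markers 4 were in the table. They summed to 43.5 and 41.9 CPM in high against 17.3 and 23.8 CPM in low. All 4 were higher in both high libraries than in either low one, as 26.8% of all genes tested were. Their part in the levels of the 6 genes was not tested. Since these are bulk samples, fewer cells of a type and less RNA per cell cannot be told apart.

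Setting high against low G0/G1 cells asks which of these genes differ with the share of resting or pre-replicative cells. PLAUR, the urokinase receptor, was the member with the widest separation, at a mean of 17.6 CPM in high and 5.23 CPM in low G0/G1 cells. SERPINE2 also lay higher in both high libraries than in either low one, at a mean of 11695 against 6464 CPM. The activators PLAU and PLAT and the annexin A2 subunits overlapped between the groups. In 2 of the 6 members the groups did not overlap, against 56.6% of all genes tested. Of the 6 members 0 were called by edgeR's quasi-likelihood test at an adjusted p under 0.05, beside 0% of all genes tested. DESeq2 called 1 of the 6, PLAUR, beside 10.4% of all genes tested. At an unadjusted p under 0.05 edgeR again had PLAUR alone, against 20.7% of all genes.

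**Figure D1:**
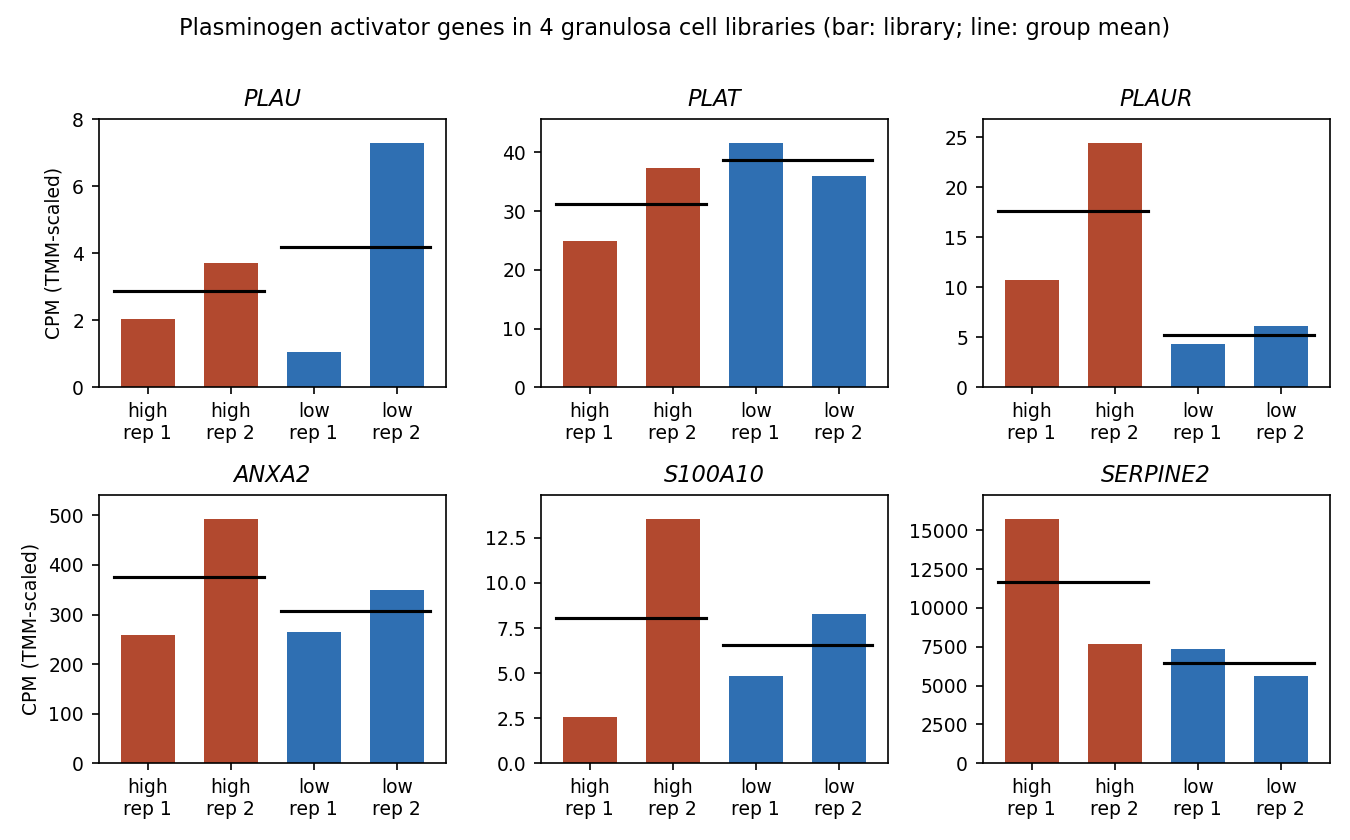
Level of each of the 6 genes in CPM on a linear axis from 0, with 1 bar per library, high G0/G1 libraries in red on the left and low G0/G1 libraries in blue on the right, and a black line at each group's mean (n = 2). PLAUR and SERPINE2 are higher in both high libraries than in either low one, while the bars of the other 4 genes overlap between groups.

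PLAU (chromosome 14, 76629313 to 76635173 in Sscrofa11.1), which encodes urokinase, was among the sparsely counted genes. It had 61 and 106 counts in high replicates 1 and 2, and 34 and 210 counts in low replicates 1 and 2. On the CPM scale these were 2.05 and 3.72 in high against 1.07 and 7.28 in low, so that the low libraries held both the lowest and the highest level. The low libraries lay 6.83-fold apart, a wider gap than in 98.8% of the genes tested, and their 95% Wilson intervals, from 0.745 to 1.45 CPM and from 6.68 to 8.76 CPM of the unscaled totals, did not meet. Such intervals cover counting error alone and not the spread between samples. They may be too narrow even for counting error, because reads that carry no molecular identifiers are not independent molecules. PLAU had a log2 fold change of -0.53 ± 0.94 (SE, high minus low, edgeR adjusted p = 0.776), with a 95% interval from -2.92 to 1.86.

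The direction of PLAU turned with 1 library. Without low replicate 2 its log2 fold change was 1.45, and without low replicate 1 it was -1.27. Low replicate 2 is also the library with 1898 CPM of theca and stroma markers, among them COL3A1, a fibrillar collagen, at 478 CPM against 6.56 CPM in low replicate 1, and their part in the PLAU level was not tested. The span of PLAU overlaps those of the kinase gene CAMK2G and of LOC102160869. How the counting treated strand is not given in the sources used here, and reads in the shared stretches cannot be told apart. LOC102160869, whose span covers all of PLAU, had 44 and 39 counts in high and 11 and 2 counts in low libraries.

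PLAT (chromosome 17, 11195599 to 11223821), the tissue-type activator, had 743 and 1065 counts in high libraries and 1326 and 1038 counts in low ones. Its levels were 24.9 and 37.4 CPM in high against 41.6 and 36.0 CPM in low. High replicate 1 was the lowest, and high replicate 2 fell between the low libraries. The log2 fold change was -0.32 ± 0.28 (SE, edgeR adjusted p = 0.551) with a 95% interval from -1.03 to 0.40, which includes 0. With 1 library left out it stayed below 0, from -0.64 without high replicate 2 to -0.06 without high replicate 1. PLAT was the steadiest member in the low group, where its libraries lay 1.16-fold apart.

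PLAUR (chromosome 6, 50489773 to 50505453), the receptor that concentrates urokinase at the cell surface, had 320 and 695 counts in high replicates 1 and 2 and 139 and 176 counts in low replicates 1 and 2. In CPM it stood at 10.7 and 24.4 in high against 4.36 and 6.10 in low. Either high library exceeded both low ones, a separation seen in this direction in 26.8% of the genes tested. The high libraries themselves lay 2.27-fold apart and the low ones 1.40-fold. The fold of group means was 3.36, and the log2 fold change 1.75 ± 0.50 (SE) with a 95% interval from 0.48 to 3.01. Its edgeR adjusted p was 0.181 and the unadjusted p 0.0161, a value that 8.87% of the genes tested reached or went under. Of the 6 members only PLAUR had a 95% interval clear of 0.

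Whether PLAUR passed depended on the test and the libraries. DESeq2 gave an adjusted p of 0.0166 and edgeR's likelihood ratio test one of 0.0447. With high replicate 1 left out, the log2 fold change of PLAUR in the quasi-likelihood fit was 2.21, and without high replicate 2 it was 1.04. DESeq2's call was lost when high replicate 2, low replicate 1 or low replicate 2 was left out, with an adjusted p from 0.121 to 0.424. Leukocytes also express PLAUR. The 14 leukocyte markers summed to 8.89 and 18.1 CPM in high replicates 1 and 2, where PLAUR stood at 10.7 and 24.4 CPM, and to 4.80 and 20.1 CPM in low replicates 1 and 2, where PLAUR stood at 4.36 and 6.10 CPM. Most of these sums was 1 gene, CD74, at 5.87 and 12.8 CPM in high and 3.26 and 12.6 CPM in low replicates 1 and 2. Of the 14 markers 2 had at least 10 counts in every library. The part of leukocytes in the PLAUR level was not tested. Its span shares 1060 bases with LOC106507601, which had 1 count in high replicate 2 and 0 in the other libraries.

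ANXA2 (chromosome 1, 111588721 to 111635064), the calcium-dependent membrane-binding subunit, had 7709 and 14036 counts in high and 8461 and 10094 counts in low libraries. In CPM these were 259 and 493 in high against 265 and 350 in low, so that the high libraries held the lowest and the highest value. The log2 fold change was 0.29 ± 0.37 (SE, edgeR adjusted p = 0.689), and it was -0.25 without high replicate 2 and 0.67 without high replicate 1.

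S100A10 (chromosome 4, 97261752 to 97272517), the small partner protein that carries the plasminogen-binding end of the complex, had 76 and 386 counts in high and 155 and 239 counts in low libraries. Its levels were 2.55 and 13.6 CPM in high against 4.86 and 8.29 CPM in low. The low libraries lay inside the range of the high ones, which were 5.32-fold apart, a wider gap than in 98.1% of the genes tested. The log2 fold change of 0.29 ± 0.82 (SE, edgeR adjusted p = 0.867) had a 95% interval from -1.78 to 2.36. Without high replicate 2 it was -1.36 and without high replicate 1 it was 1.04.

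The 2 subunits had the same order of libraries, with high replicate 2 first, then low replicate 2, low replicate 1 and high replicate 1. The gaps were wider for S100A10, so the count of ANXA2 for each count of S100A10 was 101 and 36.4 in high replicates 1 and 2 against 54.6 and 42.2 in low replicates 1 and 2. Such a ratio carries the length of each transcript, and only its differences between libraries can be read. On the log2 scale the ratio of S100A10 to ANXA2 averaged -5.92 ± 1.05 in high and -5.59 ± 0.26 in low (SD, n = 2 each), with a two-sided exact permutation p of 1.

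SERPINE2 (chromosome 15, 125748383 to 125777788), also called protease nexin-1, inhibits urokinase, tissue-type activator, plasmin and thrombin, and is known as a granulosa cell product in cattle. It had 468807 and 218349 counts in high replicates 1 and 2 and 233446 and 161630 counts in low replicates 1 and 2. These counts made up 1.54% of all counts in high replicate 1 (95% Wilson interval 1.54% to 1.55%) and 0.761% in high replicate 2, against 0.714% in low replicate 1 and 0.589% in low replicate 2. In high replicate 1 no row of the table had more counts, and in the other libraries SERPINE2 ranked between 5 and 7 by count, a rank that is not corrected for length.

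In CPM SERPINE2 stood at 15726 and 7665 in high against 7323 and 5605 in low. The groups did not overlap, but high replicate 2 was close to low replicate 1, and high replicate 1 stood 2.05-fold above the other high library. The log2 fold change was 0.86 ± 0.43 (SE) with a 95% interval from -0.23 to 1.94 and an edgeR adjusted p of 0.314. It was 0.24 without high replicate 1 and 1.28 without high replicate 2, so that high replicate 1 set most of its size. DESeq2 gave an adjusted p of 0.191 with all libraries, and 0.00215 without high replicate 2. Of the 11 granulosa markers with counts, 3 were higher in both high libraries than in either low one, as SERPINE2 was, 7 were lower in both and 1 overlapped, where 26.8% and 29.8% of all genes tested were higher and lower in this sense. Among them were INHA, the inhibin alpha subunit, at 10576 and 8002 CPM in high against 7750 and 6705 CPM in low, and INHBB, an inhibin beta subunit, at 1492 and 557 CPM in high against 3654 and 3023 CPM in low. Markers of S phase and mitosis summed to 1238 CPM in high replicate 1 and 396 CPM in high replicate 2. Within the high group SERPINE2 was thus higher in the library with more of these markers. What sets high replicate 1 apart was not tested.

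**Figure D2:**
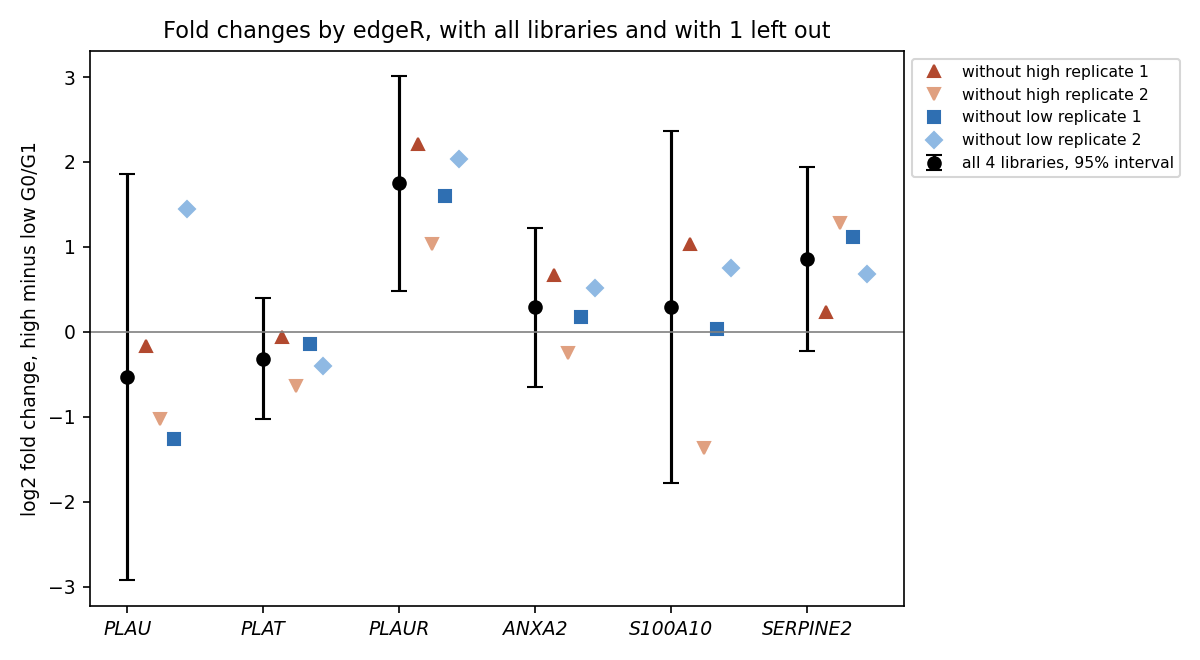
Log2 fold change of each gene, high minus low G0/G1, from edgeR's quasi-likelihood fit. Black points with bars are the estimate and 95% interval from all 4 libraries, and coloured symbols are the estimates with 1 library left out. The interval of PLAUR lies above 0, from 0.48 to 3.01, and the symbols of PLAU, ANXA2 and S100A10 fall on both sides of 0.

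Ratios of 2 members within a library do not depend on how libraries are scaled. With 2 libraries against 2, the smallest two-sided exact permutation p is 0.333, so these ratios are descriptions. PLAUR had 5.25 and 6.56 counts for each PLAU count in high replicates 1 and 2, against 4.09 and 0.838 in low replicates 1 and 2. In low replicate 2 urokinase thus had more counts than its receptor, and in the other libraries it had fewer. The log2 ratio of PLAUR to PLAU averaged 2.55 ± 0.23 in high and 0.89 ± 1.62 in low (SD, n = 2 each), a difference of 1.66 that was 0.52 without low replicate 2.

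The inhibitor was next set against each activator. SERPINE2 had 631 and 205 counts for each count of PLAT in high replicates 1 and 2, against 176 and 156 in low replicates 1 and 2. Both high libraries were above both low ones in this ratio. The log2 ratio of PLAT to SERPINE2 differed by -1.12 (high minus low, exact permutation p = 0.333), and by -0.31 without high replicate 1. For PLAU the libraries were mixed, with 7685 and 2060 SERPINE2 counts for each PLAU count in high and 6866 and 770 in low. The log2 ratio of PLAU to SERPINE2 differed by -0.79 (high minus low), by -2.37 without low replicate 1 and by 0.79 without low replicate 2. PLAT had 12.2 and 10.05 counts for each PLAU count in high replicates 1 and 2, against 39.0 and 4.94 in low replicates 1 and 2. The high libraries fell between the low ones in this ratio of the activators.

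**Figure D3:**
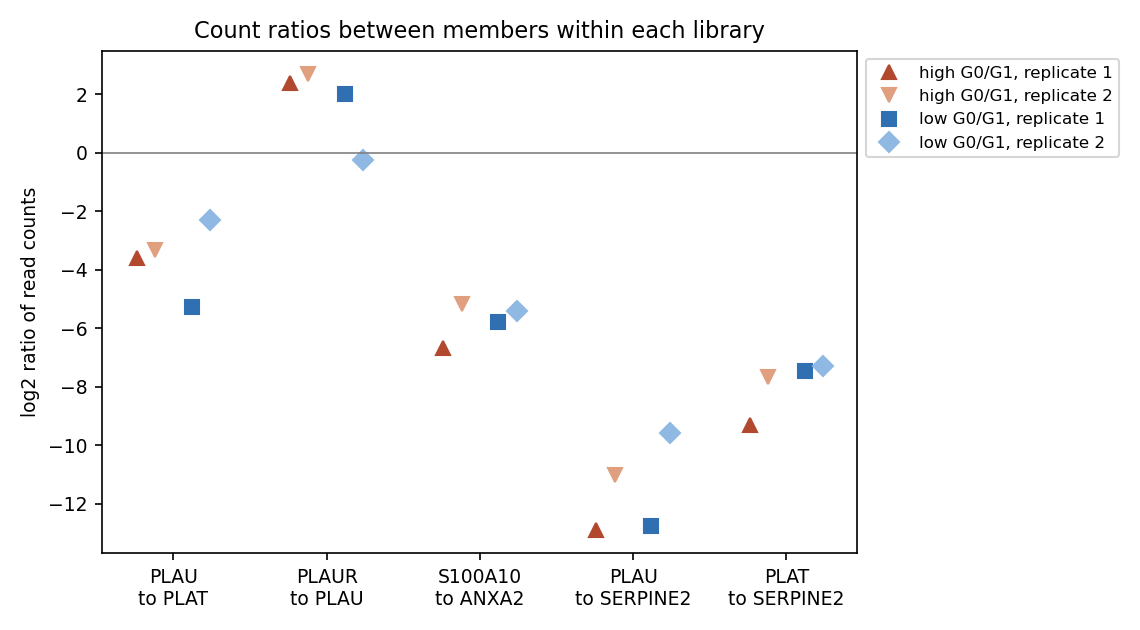
Log2 ratio of read counts between pairs of the 6 genes within each library, with 1 symbol per library and high G0/G1 libraries to the left of low ones in each column. The height of a column depends on transcript lengths, and only differences between symbols within a column compare libraries. High replicate 1 is lowest for PLAT to SERPINE2, and low replicate 2 is highest for PLAU to PLAT and lowest for PLAUR to PLAU.

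Genes around the activators were counted from lists by role. Plasminogen itself, PLG, had 0 counts in every library, and by the 3-count limit a true level could reach 0.0918 to 0.109 CPM of the unscaled totals. Of 50 listed genes of the plasminogen system in the table, 35 were tested, 14 of them with a log2 fold change above 0 and 21 below, where 49.4% and 50.6% of all genes tested were. Their median was -0.12, against -0.01 for all genes tested. By edgeR 0 passed after adjustment, 4 higher and 7 lower had an unadjusted p under 0.05, where 9.92% and 10.8% of all genes did, and DESeq2 called 3 higher and 4 lower, beside 5.34% and 5.05% of all genes.

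Among other activating proteases, ST14 had the smallest p. It encodes matriptase, which can activate the urokinase precursor. ST14 stood at 1.68 and 1.51 CPM in high against 5.58 and 8.98 CPM in low G0/G1 cells, with a log2 fold change of -2.19 ± 0.47 (SE, edgeR adjusted p = 0.158, DESeq2 adjusted p = 0.00172). The groups did not overlap, and with 1 library left out the value stayed between -2.43 and -1.79.

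Of the inhibitors on the list 5 were tested, 2 with a value above 0 and 3 below. SERPINF2, which encodes the plasmin inhibitor alpha-2-antiplasmin and is named after its values were seen, had 26 and 136 counts in high and 14 and 6 counts in low libraries. Its edgeR adjusted p was 0.204 and its DESeq2 adjusted p 0.0418. A2M, the broad protease trap alpha-2-macroglobulin, had 2.08 and 13.6 CPM in high against 0.972 and 132 CPM in low. Its high level in low replicate 2 goes with the stroma markers there, whose part was not tested, and its log2 fold change was -3.09 with all libraries and 3.03 without low replicate 2. SERPING1, the C1 inhibitor, had 14.3 and 11.2 CPM in high and 6.49 and 15.1 CPM in low, and SERPINA5, the protein C inhibitor that also traps urokinase, had 1.71 and 2.25 CPM in high and 2.70 and 1.60 CPM in low. Both overlapped between the groups.

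The SERPIN genes as a family had 10 of 25 rows tested, SERPINE2 among them, 4 above 0 and 6 below. SERPINB9, an intracellular inhibitor of granzyme B, stood at 3.72 and 3.44 CPM in high against 7.87 and 12.7 CPM in low (edgeR adjusted p = 0.176, DESeq2 adjusted p = 0.0193). SERPINB1, an inhibitor of neutrophil proteases, had 20.8 and 14.4 CPM in high and 26.7 and 42.8 CPM in low. SERPINH1, the collagen chaperone HSP47, had 1889 and 2068 CPM in high and 3227 and 2468 CPM in low. In all 3 of these genes, which were chosen by smallest p, the high libraries were lower than both low ones, the opposite order to SERPINE2. Of the 10 tested SERPIN genes, 3 were lower in both high libraries than in either low one, and 2 were higher. Of all genes tested, 29.8% were lower and 26.8% higher in this sense.

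Of proteins that bind plasminogen at the cell surface besides the annexin A2 complex, 7 of 8 tested genes were below 0. Over all genes tested 50.6% were below 0. The median of the 8 was -0.76, against -0.01 for all genes tested. By edgeR 1 higher and 3 lower had an unadjusted p under 0.05, where 9.92% and 10.8% of all genes did. DESeq2 called 0 higher and 2 lower, beside 5.34% and 5.05% of all genes. Most of these proteins have another main task in the cell. ENO1, a glycolytic enzyme that also appears on the cell surface, had 2771 and 2977 CPM in high against 7645 and 6290 CPM in low, with a log2 fold change of -1.28 ± 0.26 (SE, edgeR adjusted p = 0.155, DESeq2 adjusted p = 3.7e-04). GAPDH, another glycolytic enzyme, had 1685 and 1077 CPM in high and 3042 and 2467 CPM in low, and HMGB1, a chromatin protein, had a log2 fold change of -1.20 ± 0.38 (SE). That of HMGB1 was -0.77 without high replicate 2 and -1.82 without high replicate 1. PLGRKT, a membrane protein whose known task is to bind plasminogen, stood at 6.68 and 6.14 CPM in high and 6.37 and 8.43 CPM in low, and its groups overlapped.

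The list of receptors that clear activators bound to their inhibitors also held genes with another main task, such as LRPAP1 and IGF2R. Of its 8 tested genes 6 were above 0, where 49.4% of all genes tested were, and LRP1 was at -0.08. LRP8, a receptor of the low-density lipoprotein receptor family, stood at 2829 and 1032 CPM in high against 616 and 423 CPM in low. Its log2 fold change was 1.89 ± 0.54 (SE, edgeR adjusted p = 0.181, DESeq2 adjusted p = 0.00649), and 0.98 without high replicate 1. LRPAP1, a chaperone of this receptor family, had 307 and 295 CPM in high against 229 and 232 CPM in low (edgeR adjusted p = 0.328). IGF2R, which carries mannose-tagged proteins to lysosomes and can bind the urokinase receptor, had 201 and 260 CPM in high against 171 and 172 CPM in low (edgeR adjusted p = 0.337). In these 3 genes and in VLDLR, 4 of the 8, the groups did not overlap, with the high libraries above, as in 26.8% of all genes tested. LRP1, the receptor best known for taking up these complexes, overlapped between groups at 965 and 728 CPM in high and 1004 and 791 CPM in low. VLDLR, which can do the same, had 165 and 206 CPM in high against 161 and 165 CPM in low, so that high replicate 1 was all but level with low replicate 2.

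Partners of the urokinase receptor went both ways, with 4 of 10 tested genes above 0 and 6 below. The integrin subunit gene ITGAV had 247 and 305 CPM in high against 166 and 135 CPM in low, while ITGB5, whose product pairs with it in a vitronectin receptor, had 48.2 and 31.1 CPM in high against 88.3 and 84.0 CPM in low. The edgeR adjusted p was 0.176 for ITGAV and 0.169 for ITGB5, and DESeq2 gave 0.0353 and 0.0217 for these. ITGA3, an integrin subunit known to associate with the urokinase receptor, had 34.3 and 41.6 CPM in high against 51.6 and 71.6 CPM in low (edgeR adjusted p = 0.224). The log2 fold change of ITGB5 was -1.12 with all libraries, -1.48 without high replicate 1 and -0.84 without high replicate 2. VTN, which encodes vitronectin, a ligand of the urokinase receptor, had 7.25 and 13.3 CPM in high and 3.67 and 5.69 CPM in low, and is named after its values were seen.

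**Figure D4:**
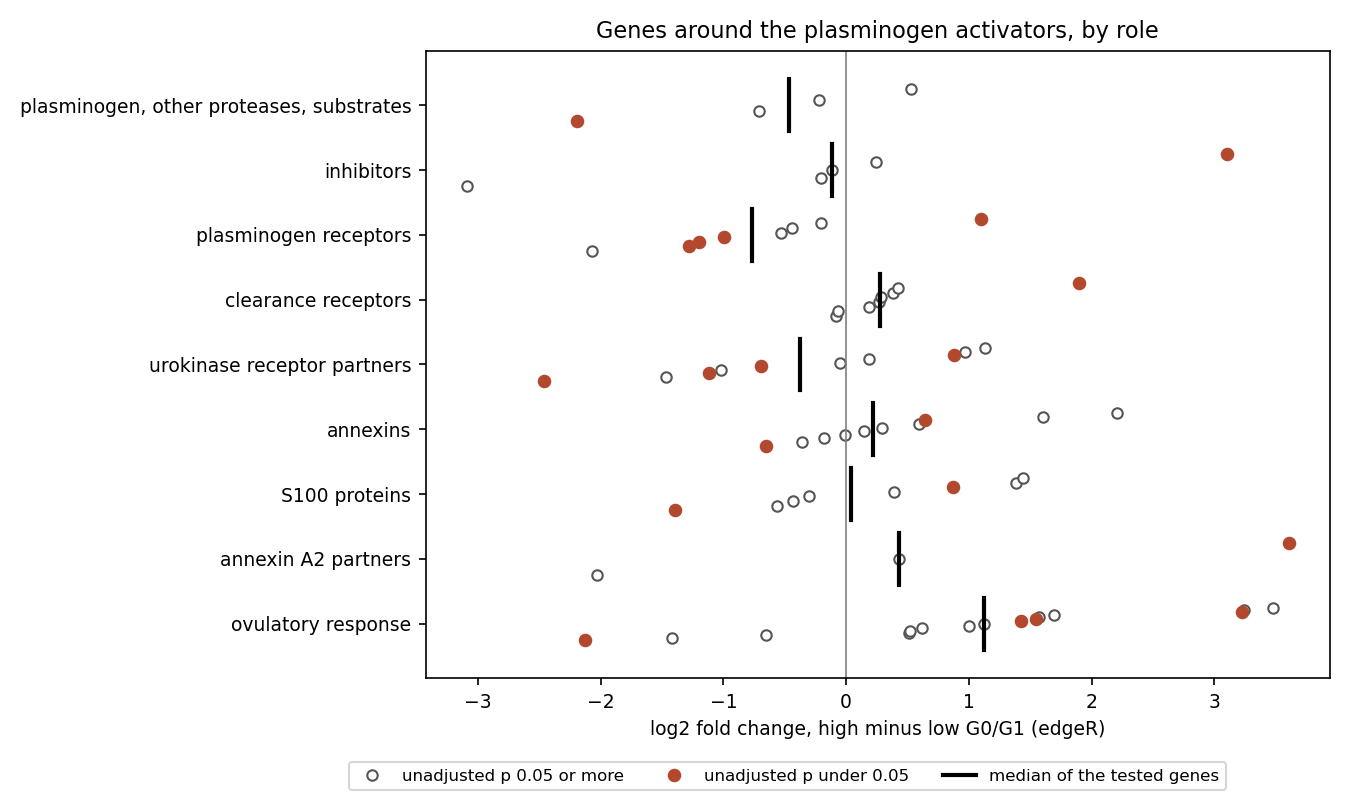
Log2 fold change, high minus low G0/G1 (edgeR), of each tested gene on the lists, in rows by role. Filled points had an unadjusted p under 0.05, open points did not, and black bars are the medians. No point passed after adjustment, and the median of plasminogen receptors lies at -0.76 and that of the ovulatory response at 1.12.

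Relatives and partners of ANXA2 and S100A10 were also read. Of 21 tested annexin, S100 and partner genes 12 were above 0 and 9 below, with a median of 0.29. ANXA1, a relative that limits inflammation, had 42.1 and 195 CPM in high against 41.9 and 36.1 CPM in low, a pattern carried by high replicate 2, without which its log2 fold change was 0.11 and not 1.60. Without high replicate 1 the log2 fold change was 2.31 for ANXA1, -1.68 for S100A11 and 2.04 for S100A6. ANXA6, another membrane-binding annexin, stood at 232 and 223 CPM in high against 322 and 392 CPM in low (edgeR adjusted p = 0.206), and ANXA7 at 99.7 and 128 CPM in high against 78.4 and 67.8 CPM in low (edgeR adjusted p = 0.216). S100A11, a relative of S100A10 that binds annexin A1, had 56.1 and 39.5 CPM in high against 112 and 140 CPM in low (edgeR adjusted p = 0.151, DESeq2 adjusted p = 0.00140). S100A14 had a log2 fold change of 0.87 ± 0.27 (SE, edgeR adjusted p = 0.194), with no overlap between the groups. S100A6, a calcium-binding relative, had 11.3 and 36.3 CPM in high against 7.09 and 10.5 CPM in low, with a log2 fold change of 0.37 without high replicate 2 and 1.44 with it.

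AHNAK, a very large scaffold protein that binds the annexin A2 complex, had the largest value among tested genes of these lists. It stood at 101 and 634 CPM in high replicates 1 and 2 against 33.2 and 27.2 CPM in low replicates 1 and 2. The log2 fold change was 3.60 ± 0.89 (SE), with an edgeR adjusted p of 0.169 and a DESeq2 adjusted p of 6.1e-05. High replicate 2 was also the highest library for ANXA2, S100A10 and PLAUR. High replicate 1 was the lowest library for ANXA2 and S100A10, whereas AHNAK was higher there than in either low library. Without high replicate 2 the value of AHNAK was 1.74, and without high replicate 1 the value was 4.38.

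Genes induced in granulosa cells by the ovulatory gonadotropin surge had 12 of 15 tested members above 0, with a median of 1.12 against -0.01 for all genes tested. Over all genes tested 49.4% were above 0. By edgeR 0 of the list passed after adjustment, and DESeq2 called 3 higher and 1 lower, beside 5.34% and 5.05% of all genes. EGR1, an immediate early transcription factor, had 1359 and 1689 CPM in high against 730 and 405 CPM in low (edgeR adjusted p = 0.170, DESeq2 adjusted p = 0.00714). NRIP1, a coregulator of nuclear receptors that mice need for ovulation, had 628 and 291 CPM in high against 187 and 127 CPM in low (edgeR adjusted p = 0.181, DESeq2 adjusted p = 0.0131), with a log2 fold change of 1.55 that was 0.88 without high replicate 1. ADAMTS9, a metalloprotease, went the other way, at 4.83 and 7.86 CPM in high against 19.2 and 36.3 CPM in low (edgeR adjusted p = 0.157, DESeq2 adjusted p = 9.9e-04). The list leaned on high replicate 2, without which 7 of 16 tested members were above 0 and the median was -0.14.

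The likeness of other genes to each member was measured as the root mean square difference of log2 CPM profiles, each centred on its mean over the 4 libraries, among 9792 genes whose log2 CPM averaged at least 3. Profiles were not scaled to a common spread, so a member that varied little can have many genes within a set distance. With 4 libraries many genes also share a profile, and for PLAT 1264 genes and for ANXA2 638 genes lay within 0.25. The nearest to PLAT were LOC100624785 at 0.035, MAN1C1 at 0.044 and REXO4 at 0.050, and the nearest to ANXA2 were EPN2 and TMSB4X at 0.032 and RHOBTB3 at 0.044. PLAUR had 41 genes within that distance, the nearest being RUSC2 at 0.075, SELENOP, which encodes a selenium carrier protein, at 0.11, and MTURN at 0.11. SERPINE2 had 163, led by AMOTL2 at 0.042, the cholesterol synthesis gene SQLE at 0.050 and the mitochondrial iron transporter gene SLC25A28 at 0.064.

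PLAU and S100A10 had few close neighbours by this unscaled measure, and why was not tested. Both had a wide gap within a group. Their own log2 CPM averaged 1.84 and 2.88, under the limit of 3 set for the genes searched. For PLAU 1 gene lay within 0.25, DPP6 at 0.20, followed by the apolipoprotein gene APOE at 0.26, which stood at 26.4 and 39.4 CPM in high and 19.1 and 88.2 CPM in low. S100A10 had 3 such genes, MXRA7 at 0.19, the matrix protein gene SVEP1 at 0.19 and the lipoprotein lipase gene LPL at 0.20. LPL stood at 14.3 and 76.1 CPM in high replicates 1 and 2 against 34.1 and 63.6 CPM in low replicates 1 and 2.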

How the data were processed

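Porcine granulosa cell RNA with an integrity number above 8 went into library construction by Illumina's standard procedure, per the labels' protocols. HISAT2 and the assembly Sscrofa11.1 are named in the submitters' processing notes. The counter, its strand setting, the annotation and any filter: not given in the sources used here. The authors deposited raw read counts, as whole numbers in 1 table with a row for each gene symbol. RefSeq's annotation of Sscrofa11.1 holds 29862 of the 29884 symbols and was the source of coordinates. Replicates were numbered in the order of listing, and the numbers pair nothing.

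The high and low G0/G1 libraries were compared with edgeR 4.0.16 (R 4.3.3). Genes were kept by filterByExpr (counts of at least 10, totals of at least 15), libraries were scaled by TMM, and glmQLFTest p-values were adjusted by Benjamini-Hochberg over 14352 genes, with calls under 0.05. Residual degrees of freedom were 2, and 3.20 were added by the prior. Standard errors were taken as the size of the log2 fold change divided by the square root of F, and 95% intervals from the t distribution at the total degrees of freedom. CPM are relative to TMM-scaled totals, and log2 CPM include a prior count of 2. Alternatives were DESeq2 1.42.0 and voom of limma 3.58.1 on the same genes, edgeR's likelihood ratio test, other scalings and filters, and each library left out. The fit was tested on simulated data.

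The members and lists were chosen with earlier results of these data known. The rule for named genes takes the 6 members, PLG, up to 3 genes per role by smallest unadjusted p among those averaging at least 1 in log2 CPM, 3 SERPIN genes chosen alike, and the 3 genes nearest to each member in profile. Other genes are markers or values given for comparison, chosen after they were seen. PLAA and CPB1, which act outside the plasminogen system, stayed in its list as written. Of the listed genes 1 is not reported here.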

Additional observations from a re-analysis of the deposited data

How the results depend on the processing

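Of 96 alternative values of the 6 members, 83 kept both their direction and their side of the threshold, 5 passed it and 8 changed sign. PLAUR passed with DESeq2 (1.78), the likelihood ratio test (1.75), and without high replicate 1 in edgeR (2.21) and in DESeq2 (2.26), and its log2 fold change ran from 1.04 to 2.21 in edgeR with 1 library left out. SERPINE2 passed in DESeq2 without high replicate 2 (1.30), with an edgeR range of 0.24 to 1.28. The sign of PLAU changed with limma-voom (0.016) and without low replicate 2 in edgeR (1.45) and in DESeq2 (1.42), with an edgeR range from -1.27. That of ANXA2 changed without high replicate 2 in edgeR (-0.25) and DESeq2 (-0.23), with a range up to 0.67. That of S100A10 changed with limma-voom (-0.11) and without high replicate 2 in edgeR (-1.36) and DESeq2 (-1.34), with a range up to 1.04. PLAT stayed between -0.64 and -0.02. The cause was not tested. Genes called higher and lower numbered 0 and 0 in edgeR with all libraries (1424 and 1553 at an unadjusted p under 0.05), 2 and 3 with no filter, 557 and 534 with the likelihood ratio test, 767 and 725 with DESeq2, 0 and 0 with limma-voom (1414 and 1710 unadjusted), 0 to 363 and 0 to 591 in edgeR with 1 library left out, and in DESeq2 with 1 library left out 982 and 1261 (high replicate 1), 386 and 471 (high replicate 2), 305 and 114 (low replicate 1), or 202 and 141 (low replicate 2). Without high replicate 2, 7 of the ovulatory genes were above 0, and at most 13 with another library left out. Of the edgeR fits with 1 library left out, only that without high replicate 1 called any gene. In fits that leave 1 library in a group, that library is assumed to vary like the other group. Of the ratios, the log2 difference (high minus low) changed sign for PLAU to PLAT without low replicate 1 (-1.16, against 0.33 with all), and without high replicate 1 for S100A10 to ANXA2 (0.40, against -0.34) and for PLAU to SERPINE2 (0.16, against -0.79), the last also without low replicate 2 (0.79). Levels per length were not computed, since no exon lengths were used here. No paired analysis was possible because the labels give library codes and no replicate numbers. A high and a low code share a first letter, the other high and low codes share a digit, and all codes end in the same letter. The labels do not give the meaning of these letters and digits. The counts of PLAU and S100A10, under 110 in some libraries, limit the precision of these genes.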
